A study of Homo sapiens with 108 samples.

Results

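Mitochondrial ribosomal proteins were followed through 6 human melanoma cell lines before and after irradiation. The members were all probes whose annotation gave exactly 1 symbol of the form MRPL or MRPS followed by a number and at most 1 letter, and that had a value on all but at most 10% of the arrays. Of 86 such probes for 72 genes, 2 had more than 10% missing values, and 84 probes for 71 genes remained of the 44606 probes on the array that met the same limit. By symbol, 57 probes for 46 genes stood for the large subunit and 27 probes for 25 genes for the small subunit. A filter on level, set at the 40th percentile of mean log2 intensity, left 81 member probes for all 71 genes among 26717 tested probes. The 3 member probes under that level were second probes of MRPL46, MRPL23 and MRPS22, which each kept another probe.

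MeWo, HMV-I, HMV-II, 92-1, Colo679 and C32TG cells were given 2 Gy of carbon ions or 2 Gy of X-rays, and RNA was taken 1 h or 3 h later. Each beam had its own unirradiated cells, labelled 0Gy, for which the labels give no time. That made 36 groups, each with 3 single-colour CodeLink arrays, or 18 arrays per line. All groups are cultured tumour lines with no other treatment or engineered allele named in the labels. The labels do not tell whether 3 arrays of 1 group stand for 3 cultures, so p-values within a line measure the spread between these arrays, which may be technical. Beam and set of cultures cannot be told apart within a line, and both times of a beam are set against the same 0Gy arrays.

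The array medians of the deposited intensity lay between 1.02 and 1.32, 1000 to 8034 probes per array had no value, and the number of arrays limits the precision of all values. Of 7 melanocyte markers, 5 to 7 were above the level filter in each line except HMV-I, where 2 were. Of 3 leukocyte markers 1 was above it in each line, of 2 keratinocyte markers 0 or 1, and of 5 fibroblast markers 1 to 3. Because these are bulk samples, fewer cells of a type and less RNA per cell cannot be told apart. The MeWo carbon-ion cultures stood apart from the MeWo X-ray cultures before any dose, and the values that rest on them are given with that difference beside them.

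The mitochondrial ribosome, or mitoribosome, translates the few proteins encoded by mitochondrial DNA, all of them parts of the respiratory chain and the ATP synthase. Its RNA comes from the mitochondrial genome, but all of its proteins are encoded in the nucleus, made in the cytosol and imported. Some have counterparts in bacterial ribosomes and others exist only in mitochondria. MRPS18A and MRPS30 carry small-subunit names but are known from structures to sit in the large subunit, and the counts here follow the symbols. Nuclear promoters of mitochondrial genes are known for sites of NRF1, of ETS factors such as GABP, and of YY1.

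RefSeq promoter windows (build GRCh38.p14, 250 bases before to 50 after the annotated start) were found for 63 of the 71 genes. The letters GCGCA and GCGC parted by any 1 base, for NRF1, were present on either strand in 7 of the 63 windows (11.1%) and in 6.28% of all 27305 RefSeq windows. The letters CCGGAAGT, for ETS factors, were present in 11 (17.5%) against 4.44% of all windows. The letters AANATGGCG, for YY1, were present in 15 (23.8%) against 3.37%. At least 1 of the 3 was present in 30 member windows (47.6%) against 12.7% of all, 3 member windows held more than 1 of them, and in 0 windows did matches of different motifs overlap. Such matches describe letters, not sites or causes.

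Windows of 4 genes to which the results below return are shown 5′ to 3′ on the gene's strand, with matches in capitals. MRPL52, at chr14:22829637-22829936 on the plus strand, has AAGATGGCG at 98 and again at 64 bases before the start and ACTTCCGG, the ETS letters on the other strand, at 6 bases before it. MRPL38, at chr17:75904835-75905134 on the minus strand, has ACTTCCGG at 209 bases before the start and AAGATGGCG just after it. MRPL57, at chr13:21176408-21176707 on the plus strand, has GCGCAGGCGC at 74 bases before the start. MRPL58, at chr17:75012420-75012719 on the plus strand, has none of these letters in the window.
MRPL52: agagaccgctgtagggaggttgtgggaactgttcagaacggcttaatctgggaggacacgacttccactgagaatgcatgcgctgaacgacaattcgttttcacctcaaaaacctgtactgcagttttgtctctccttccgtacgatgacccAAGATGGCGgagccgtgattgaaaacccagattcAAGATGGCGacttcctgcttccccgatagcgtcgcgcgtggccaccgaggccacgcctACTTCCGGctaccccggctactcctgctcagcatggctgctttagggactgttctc
MRPL38: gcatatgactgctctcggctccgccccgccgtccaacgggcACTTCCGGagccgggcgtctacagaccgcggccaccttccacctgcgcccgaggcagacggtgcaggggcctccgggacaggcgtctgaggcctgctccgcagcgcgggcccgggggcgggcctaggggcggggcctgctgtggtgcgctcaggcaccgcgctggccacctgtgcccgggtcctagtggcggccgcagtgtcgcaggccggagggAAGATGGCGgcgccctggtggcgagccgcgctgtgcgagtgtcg
MRPL57: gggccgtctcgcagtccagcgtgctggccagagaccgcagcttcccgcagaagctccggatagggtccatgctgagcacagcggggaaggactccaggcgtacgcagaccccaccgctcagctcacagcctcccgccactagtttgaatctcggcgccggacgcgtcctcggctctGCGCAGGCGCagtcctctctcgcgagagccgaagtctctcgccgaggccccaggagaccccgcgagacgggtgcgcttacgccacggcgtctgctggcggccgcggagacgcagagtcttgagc
MRPL58: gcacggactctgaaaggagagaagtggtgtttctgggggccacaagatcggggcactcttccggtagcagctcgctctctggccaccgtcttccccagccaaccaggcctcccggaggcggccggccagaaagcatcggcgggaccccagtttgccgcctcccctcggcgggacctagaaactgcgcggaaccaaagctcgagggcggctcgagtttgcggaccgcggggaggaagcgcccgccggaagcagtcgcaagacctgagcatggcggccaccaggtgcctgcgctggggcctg

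In unirradiated cells, most mitoribosomal proteins differed in level between lines, as did most tested probes. The members did not rise or fall as a block. A moderated F test over the lines called 59 of the 81 members (72.8%), and it called 65.4% of all tested probes. Values are log2 of the quantile-normalized intensity, averaged over both 0Gy sets of a line, and levels of different probes are not compared with each other. The range from the lowest to the highest line mean ran from 0.23 to 2.09 over the members, with a median of 1.07, and 43 members (53.1%) ranged over more than 1, against 50.4% of all tested probes. Over the 12 unirradiated means, the mean correlation between pairs of members was 0.055, against 0.031 for all tested probes and 0.20 for cytosolic ribosomal proteins. The order depended on the points used. Over the 6 set differences these values were 0.046, 0.035 and 0.004. Over the 36 group means centred on line and beam they were 0.11, 0.094 and 0.085. All of these are descriptions, and the 12 points share lines and arrays.

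**Figure D1:**
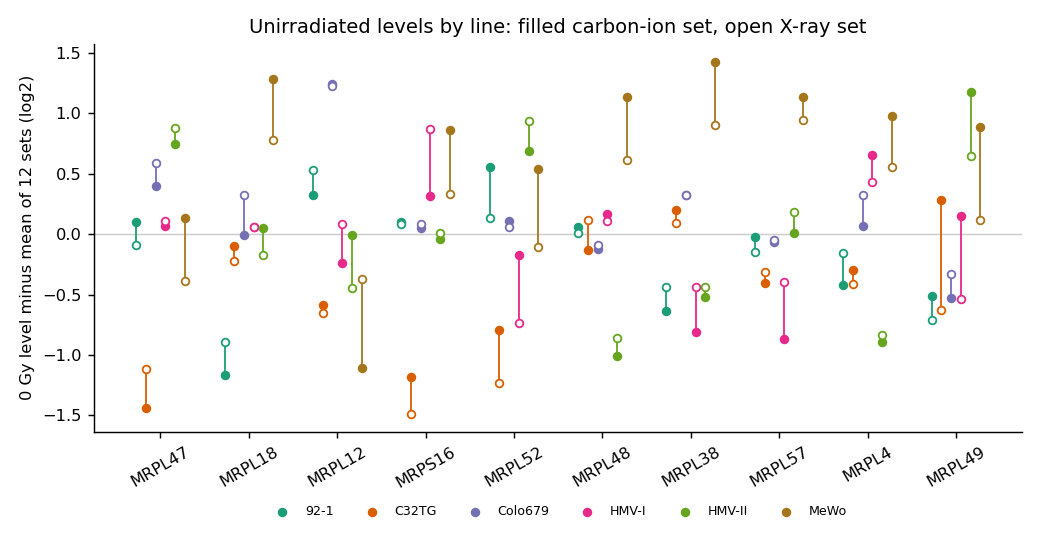
Unirradiated log2 levels of the 10 called members with the largest range over lines, as differences from the mean of 12 set means (vertical axis, log2); filled points are the carbon-ion set, open points the X-ray set, each a mean of 3 arrays, and colours mark lines (MRPL52 is probe 104106 and MRPL4 probe 434007). C32TG lies far below the other lines for MRPS16 and MRPL47, and MeWo far above them for MRPL38 and MRPL57.

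MRPL47, a large-subunit protein with a bacterial counterpart, had the widest range. Its set means in the carbon-ion and X-ray controls were 3.51 and 3.84 in C32TG, 5.06 and 4.87 in 92-1, 5.02 and 5.06 in HMV-I, 5.09 and 4.57 in MeWo, 5.70 and 5.83 in HMV-II, and 5.35 and 5.54 in Colo679. C32TG was low and did not overlap any other line, while the set means of the other lines lay between 4.57 and 5.83. Against the mean of the other lines C32TG was lower by a log2 difference of -1.53 ± 0.16 (SE, adjusted p = 9.94e-05).

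MRPS16, a small-subunit protein with a bacterial counterpart, had its lowest set means, 4.16 and 3.85, in C32TG, against 5.31 to 6.21 in the other lines. The C32TG arrays read 4.17, 4.07 and 4.24 in the carbon-ion set and 3.82, 3.91 and 3.83 in the X-ray set, so all 6 were low. The difference of C32TG from the other lines was -1.60 ± 0.18 (SE). For MRPL52 probe 104106, C32TG was lower by -1.21 ± 0.18 and HMV-II higher by 0.98 ± 0.18.

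MRPL12, which carries the flexible stalk that recruits translation factors and also binds the mitochondrial RNA polymerase, was highest in Colo679. Its Colo679 arrays read 7.26, 7.27 and 7.19 in the carbon-ion set and 7.30, 7.30 and 7.06 in the X-ray set, and the next line mean was 6.43, in 92-1. MeWo had the lowest mean, 5.26, but its sets differed, with 4.89 in the carbon-ion set and 5.63 in the X-ray set. Colo679 was higher than the other lines by 1.48 ± 0.19 (SE).

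MeWo was highest for MRPL38, MRPL57 and MRPL18, all of the large subunit. MRPL57 read 8.27, 8.27 and 8.53 in the MeWo carbon-ion set and 8.14, 8.06 and 8.29 in the X-ray set, while the set means of the other lines lay between 6.35 and 7.40. The differences of MeWo from the other lines were 1.40 ± 0.17 for MRPL38, 1.25 ± 0.13 for MRPL57 and 1.24 ± 0.17 for MRPL18 (SE). MRPL18 was lowest in 92-1, with set means of 1.21 and 1.48 and a difference of -1.23 ± 0.17. HMV-II was lowest for MRPL48, by -1.12 ± 0.15. For MRPL4, whose protein lines the exit tunnel, HMV-II was lowest at probe 434007, by -1.04 ± 0.15. At MRPL4 probe 277035 the line means of 92-1 and HMV-II were 4.56 and 4.63, with differences from the other lines of -0.95 ± 0.14 and -0.87 ± 0.14, so these lines lay close together at the bottom. HMV-II was highest for MRPL49, a probe of low level (mean log2 1.13), by 1.09 ± 0.20.

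Called members fell unevenly between lines. In 92-1, 4 members were higher and 23 lower than in the other lines, where 16% and 15% of all tested probes were; the members' median was -0.10 and that of all tested probes 0.04. In MeWo, 16 were higher and 4 lower, against 14.3% and 18.1%, with medians of 0.08 and -0.09. In HMV-II, 18 were higher and 9 lower, against 13.2% and 13.5%. In Colo679, 6 were higher, against 9.43% of all probes, while 6 were lower, against 10.9%. With median centring the splits were 6 and 18 in 92-1, 15 and 4 in MeWo, and 17 and 8 in HMV-II. The shares of all probes were then 17.2% and 14.5%, 13.5% and 19.2%, and 13.7% and 12.6%. With values as deposited the splits were 5 and 19, 17 and 2, and 18 and 7, against 15.3% and 14.5%, 14.8% and 14.2%, and 14% and 11.3%. As deposited Colo679 had 7 higher and 3 lower, against 10.2% and 9.65%. Without MeWo, the count in Colo679 went from 12 to 21, and the share of all probes in that setting is not given here.

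In C32TG and HMV-I the direction depended on the scaling of the arrays. In C32TG, 3 members were higher and 18 lower (13.8% and 18.7% of all tested probes). The split was 9 and 7 with median centring (18.3% and 13.3% of all) and 9 and 7 as deposited (19.8% and 10.8%). Without MeWo the count of calls went from 21 to 32, and the share of all probes in that setting is not given here. In HMV-I, 21 were higher and 11 lower (23.9% and 14.9%). The split was 5 and 17 with median centring (15.3% and 18.9%) and 1 and 22 as deposited (9.81% and 24.8%). The median difference of all tested probes in HMV-I moved with it, from 0.16 to 0.01 and -0.14. The single members named for these lines kept their direction under each scaling. In HMV-I these were MRPL15, MRPL4 probe 277035 and MRPS2, higher by 0.85 ± 0.15, 0.86 ± 0.14 and 0.82 ± 0.14, and MRPL35, MRPL23 and MRPL57, at -0.92 ± 0.15, -0.85 ± 0.16 and -0.76 ± 0.13 (SE). In the same line 7 of 7 melanocyte markers were lower, with a median of -5.78; their part in the members' difference was not tested.

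The other members farthest from the rest are given by line, and some of them were called in more than 1 line. In 92-1, MRPL52 probe 405053 was higher by 0.77, MRPS18C by 0.61 and MRPL14 by 0.52, and MRPS11 probe 36081 and MRPL24 were at -1.04 and -0.98. In C32TG, MRPL44, MRPS28 and MRPL13 were higher by 0.89, 0.49 and 0.46. In Colo679, MRPL24 and MRPS33 were higher by 0.73 and 0.68, and MRPS28, MRPL28 probe 24068 and MRPL30 probe 144088 were at -0.95, -0.76 and -0.75. Also called were MRPL28 probe 24068 in 92-1, at -0.88, MRPS33 in HMV-II, at 0.64, and MRPS28 in 92-1, at 0.41. At MRPL28 probe 179030 the values were -0.42 in Colo679 and -0.46 in 92-1, and neither passed. The other MRPL30 probe, 75006, was at 0.30 in Colo679 and did not pass (adjusted p = 0.24), and over the 12 unirradiated means the MRPL30 probes correlated at -0.54. They also disagreed in C32TG (0.18, not called, and -0.51) and HMV-II (0.71 and -0.19, not called), for probes 144088 and 75006 in that order. In HMV-I, MRPL37 was higher by 0.49 and 0.57 at probes 305033 and 151027 and at -0.14, not called, at probe 237109. MeWo had MRPL19 probe 394014, MRPL51 and MRPL12 at -1.10, -1.04 and -0.89, and these 3 are lower in its carbon-ion set than in its X-ray set. All 72 named directions were the same under both other scalings, and 68 stayed past the threshold.

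Of the members looked at whatever their values, MRPS30, linked to cell death, had line means of 5.95 in 92-1 to 6.76 in MeWo (adjusted p = 0.010 for a difference among lines). The paralogs MRPS18A, MRPS18B and MRPS18C behaved unlike each other. MRPS18A lay between 5.38 and 5.62 in all lines and did not pass (adjusted p = 0.81), MRPS18B ran from 5.35 in 92-1 to 6.24 in HMV-II (0.020) and MRPS18C from 0.57 in HMV-I to 1.44 in 92-1 (0.048). The MRPS18C probe is of low level, with a mean log2 of 0.91.

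The rest of the mitochondrial translation machinery was set beside the members. In C32TG, 6 of 10 translation factors and 5 of 21 assembly and ribosomal RNA factors were lower and 0 and 1 higher, against 18.7% lower and 13.8% higher of all probes. In HMV-II, 7 of 15 mitochondrial aminoacyl-tRNA synthetases were higher and 1 lower. In 92-1, where members were more often lower than higher, 12 of 54 cytosolic ribosomal proteins were higher and 0 lower, and 5 of 10 translation factors were lower and 1 higher. Of DAP3, CHCHD1 and PTCD3, small-subunit proteins under other names, 2 were lower in C32TG and 2 higher in HMV-II.

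The 2 unirradiated sets of each line carried the same labels apart from the beam they served. In MeWo they differed in most mitoribosomal proteins, as in most of all tested probes. Of 80 members tested in MeWo, 45 were higher in the carbon-ion set and 21 lower (42.1% and 27.7% of all tested probes), with a median difference of 0.23 for the members and 0.11 for all. All 3 carbon-ion arrays lay above all 3 X-ray arrays for 45 members (44.9% of all probes did so) and below them for 24 (31.9%). The split depends on scaling: it was 37 higher and 25 lower with median centring (34.4% and 40.8% of all probes). As deposited it was 22 higher and 30 lower (23.4% and 48.6%). There the median of all probes moved to -0.21 and that of the members to -0.01. The members' median stayed above that of all probes, by 0.12, 0.20 and 0.20.

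**Figure D2:**
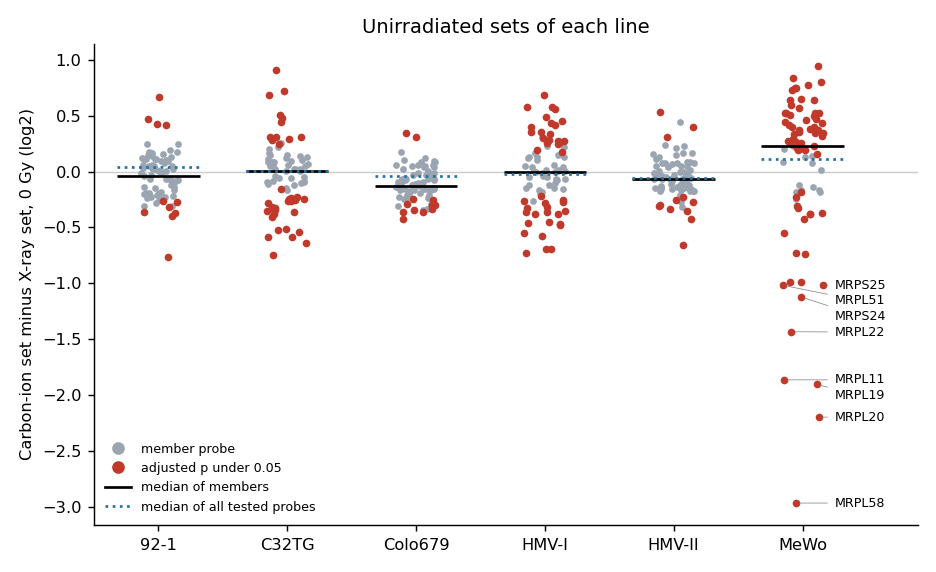
Difference between the unirradiated carbon-ion and X-ray sets (vertical axis, log2) of each member probe in each line; red points passed adjusted p under 0.05, the black line is the members' median and the dotted line that of all tested probes. In MeWo a tail of 8 members lies below -1, down to -2.97 for MRPL58, and no member of another line lies beyond -1.

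MRPL58, a peptidyl-tRNA hydrolase that frees stalled mitoribosomes and is built into the large subunit, showed the largest set difference. The MeWo arrays read 2.38, 2.15 and 1.83 in the carbon-ion set and 5.10, 5.26 and 4.90 in the X-ray set. The sets did not overlap, and the lower set was at 0.13 times the level of the other, a log2 difference of -2.97 ± 0.15 (SE, adjusted p = 4.63e-13). In C32TG the same probe read 3.88, 3.91 and 3.76 against 4.71, 4.64 and 4.44, a difference of -0.75 ± 0.10. In Colo679, HMV-I and HMV-II the difference lay between -0.19 and -0.03 and did not pass, and in 92-1, where 1 array had no value and no test was made, it was -0.03.

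MRPL20, MRPL19 and MRPL11, large-subunit proteins with bacterial counterparts, shared the direction in MeWo. MRPL20 read 4.75, 4.56 and 4.56 against 6.88, 6.79 and 6.80, MRPL19 probe 394014 3.76, 3.73 and 3.70 against 5.69, 5.65 and 5.58, and MRPL11 probe 159019 2.17, 2.29 and 2.28 against 4.17, 4.21 and 3.96. Their log2 differences were -2.20 ± 0.10, -1.91 ± 0.11 and -1.86 ± 0.11 (SE), and in none did the sets overlap. MRPL22, which lines the exit tunnel, followed at -1.43 ± 0.10. With MRPS24, MRPS25 and MRPL51 these made 8 of 80 members (10%) that were lower by more than 1, against 5.27% of all tested probes; 0 were higher by more than 1, against 3.62%. The limit of 1 was chosen after the values were seen, and in the other 5 lines 0 members differed by more than 1. Smaller differences of the same direction were present in C32TG. There MRPL20, MRPL19 probe 394014, MRPL11 probe 159019 and MRPL22 were at -0.53, -0.59, -0.59 and -0.54. MRPS24, MRPS25 and MRPL51 were at -0.32, -0.23 and -0.35 in that line. In HMV-I, MRPL20, MRPS25 and MRPL51 went the other way, at 0.35, 0.35 and 0.29.

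Second probes of MRPL19 and MRPL11 gave other values. MRPL19 probe 501034, of low level, read 0.63, 0.44 and 0.32 against 0.29, 0.23 and 0.47 in MeWo, a difference of 0.13 ± 0.13 that did not pass (adjusted p = 0.36). MRPL11 probe 224099 read 3.72, 3.60 and 3.63 against 4.46, 4.32 and 4.36, with no overlap, a difference of -0.73 ± 0.09 (adjusted p = 1.37e-07), smaller than at probe 159019. MRPL37 was higher by 0.35 and 0.30 at probes 305033 and 151027 and lower, at -0.38, at probe 237109, and MRPL30 was higher by 0.40 at probe 75006 and at -0.14, not called, at probe 144088. Which transcripts each probe reads was not tested.

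**Figure D3:**
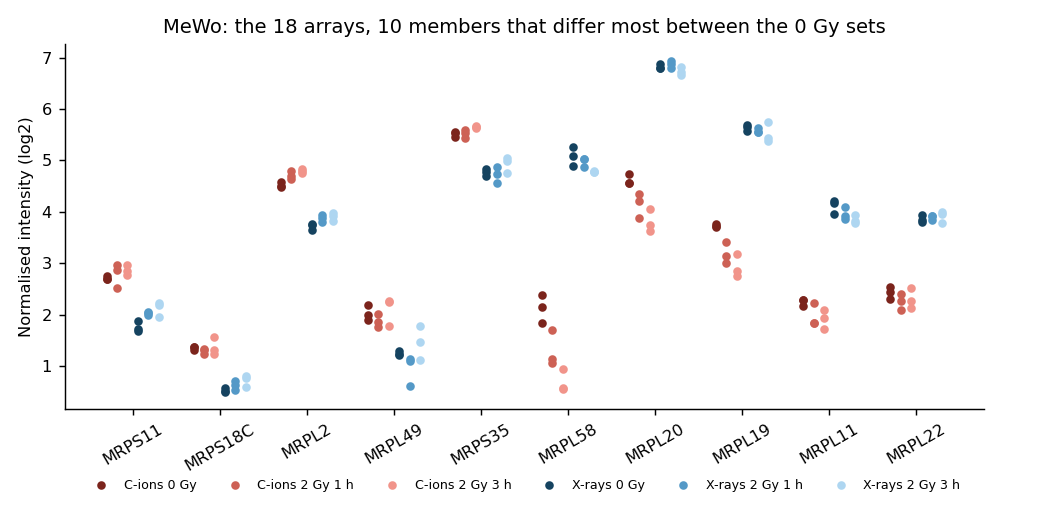
Normalised log2 intensity (vertical axis) on the 18 MeWo arrays for the 5 members farthest above and the 5 farthest below in the carbon-ion set; reds are carbon-ion and blues X-ray cultures, each point 1 array. MRPL58, MRPL20 and MRPL19 start low in the carbon-ion set and lie lower still at 3 h, while the X-ray cultures of these genes changed by -0.30 to 0.05 on average (MRPS11 is probe 68046, MRPL2 246107, MRPL19 394014 and MRPL11 159019).

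The members farthest above in the MeWo carbon-ion set were MRPS11 probe 68046, MRPS18C, MRPL2 probe 246107, MRPL49 and MRPS35. MRPS11 read 2.69, 2.69 and 2.75 against 1.72, 1.68 and 1.88, with no overlap, a difference of 0.95 ± 0.10 (SE), and at its other probe the difference was 0.37 ± 0.07. MRPL2, near the peptidyl transferase centre, read 4.51, 4.48 and 4.57 against 3.65, 3.74 and 3.76 at one probe, a difference of 0.80 ± 0.07, while its probe 220027 differed by 0.09 ± 0.10 and did not pass (adjusted p = 0.46). By symbol, 17 of 25 small-subunit members were higher and 5 lower, and 28 of 55 large-subunit members were higher and 16 lower; the difference between subunits was not tested.

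Genes around the mitoribosome were counted in the MeWo sets beside the 42.1% higher and 27.7% lower of all probes. All 8 regulators of mitochondrial biogenesis, among them NRF1, GABPA and PPARGC1A, were higher in the carbon-ion set, with a median of 0.54. Of 14 mitochondrial aminoacyl-tRNA synthetases 11 were higher and 2 lower, of 10 translation factors 6 and 0, and of 20 assembly factors 11 and 6. Of 47 cytosolic ribosomal proteins 13 were higher and 21 lower, and of 22 genes of G2 phase and mitosis 11 and 6. The shares of assembly factors and of G2 and mitosis genes that were higher lay near that of all probes. The counts were not recomputed under the other scalings. Their part in the members' difference was not tested.

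In HMV-I, 21 of 80 members were higher in the carbon-ion set and 21 lower (23.8% and 25.6% of all tested probes), with a median of -0.001 for the members and -0.02 for all. The split became 27 and 10 with median centring (32.6% and 15.4% of all) and 30 and 8 as deposited (34.7% and 14%). MRPL49 read 1.00, 1.24 and 1.62 in the carbon-ion set and 0.57, 0.66 and 0.56 in the X-ray set, without overlap, a difference of 0.69 ± 0.14 (SE). MRPL44, MRPS27, MRPL52 probe 104106 and MRPL30 probe 144088 were higher by 0.57, 0.57, 0.56 and 0.49. MRPL40 read 5.35, 5.59 and 5.48 against 6.17, 6.32 and 6.13, also without overlap, a difference of -0.73 ± 0.10, and MRPS11 probe 36081, MRPL46, MRPS15 and MRPS16 were at -0.70, -0.70, -0.58 and -0.55. Second probes disagreed in sign here: MRPS11 probe 68046 was higher by 0.44 ± 0.08 (adjusted p = 0.000215), and MRPL11 had -0.38 at probe 224099 and 0.16 at probe 159019, of which the second did not pass. Beside them, 19 of 23 genes of G2 phase and mitosis were higher and 0 lower, and 8 of 13 aminoacyl-tRNA synthetases were higher and 2 lower; their part was not tested.

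The other lines showed smaller differences. C32TG had 12 of 75 members higher and 24 lower (23.4% and 19.3% of all), with MRPL49 at 0.91 ± 0.11 and MRPL44 at 0.72 ± 0.08 above and MRPL17 at -0.64 ± 0.08 below besides MRPL58. MRPL19 had -0.59 at probe 394014 and 0.48 at probe 501034 in C32TG, and MRPL52 probes 104106 and 405053 had 0.44 and -0.15 there and 0.42 and -0.28 in 92-1, where the second value of each line did not pass. In C32TG MRPL37 had 0.31 at probe 151027 and -0.06, not called, at probe 305033. Beside them, 14 of 23 genes of G2 phase and mitosis were higher there and 3 lower, and 15 and 0 in 92-1; their part was not tested. Colo679 had 2 of 78 higher and 11 lower (5.46% and 7.57%), 92-1 4 of 77 and 7 (11.3% and 5.31%) and HMV-II 3 of 77 and 9 (8.97% and 15.3%). Farthest above and below were MRPS27 (0.67) and MRPL24 (-0.76) in 92-1, MRPL27 (0.34) and MRPL11 probe 159019 (-0.43) in Colo679, and MRPL49 (0.53) and MRPL2 probe 246107 (-0.65) in HMV-II. Other scalings moved these splits: with median centring they were 10 and 23, 1 and 23, 2 and 9, and 1 and 8 in C32TG, Colo679, 92-1 and HMV-II, and as deposited 7 and 25, 1 and 11, 1 and 23, and 1 and 2. The shares of all probes were 21.6% and 19.1%, 7.22% and 8.49%, 8.09% and 5.3%, and 8.32% and 14.4% with median centring. As deposited they were 18.2% and 23.7%, 9.46% and 5.71%, 5.79% and 9.35%, and 7.61% and 7.48%. Without replicate 1, 2 or 3 in turn, the members called were 8, 0 and 4 in Colo679 and 1, 3 and 8 in 92-1, and without replicate 2 or replicate 3 there were 3 in HMV-II. For these fits the shares of all probes are not given here, and the moves are not read as particular to the members.

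Across the 6 lines no member differed between the sets after adjustment, and 0% of all probes did (limma, line as replicate). At an unadjusted p under 0.05 there were 7 members, and a fit on all arrays, which counts arrays as replicates, called 31. The shares of all probes for these counts are not given here. MRPL49 came nearest, with differences of 0.20 in 92-1, 0.91 in C32TG, -0.20 in Colo679, 0.69 in HMV-I, 0.53 in HMV-II and 0.77 in MeWo, above 0 in 5 lines (mean 0.48 ± 0.41, SD, adjusted p = 0.39). Its probe is of low level, with a mean log2 of 1.13. The set difference itself varied between lines for 70 of 74 members with values on all the arrays it used, by an F test on arrays that also called 87.3% of all probes.

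After irradiation, the mitoribosomal proteins as a group moved little. The members that passed across lines were all large-subunit by symbol, and the difference between subunits was not tested. The value tested was the change of each line from its own same-beam 0Gy cells, with the 6 lines as replicates. After carbon ions, 2 members were higher and 0 lower at 1 h (1.59% and 11% of all tested probes), and 6 were higher and 2 lower at 3 h (3.31% and 9.2%). After X-rays, 0 were higher and 1 lower at 1 h (0.195% and 1.12%), and 0 and 1 at 3 h (1.8% and 4.33%). None of the 26 small-subunit probes passed in any of the 4 comparisons (limma), with 1, 5, 2 and 6 at an unadjusted p under 0.05, in the order named. In the fit on all arrays, 15, 28, 8 and 26 members passed. For the unadjusted counts and that fit the share of all probes is not given here. Neither is read as particular to the members. Single lines or replicates moved these counts: at 3 h after carbon ions, 1 passed without 92-1, 3 without replicate 1, 4 without HMV-I, 4 without HMV-II, 5 without Colo679 and 5 without replicate 3. At 1 h after carbon ions, 1 passed without replicate 1, 1 without Colo679 and 4 without C32TG. At 3 h after X-rays, 0 passed without 92-1, MeWo or replicate 1, 2 without HMV-I or replicate 3, and 3 without Colo679. With a line or replicate left out, the shares of all probes are not given here. These moves are therefore not read as particular to the members.

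**Figure D4:**
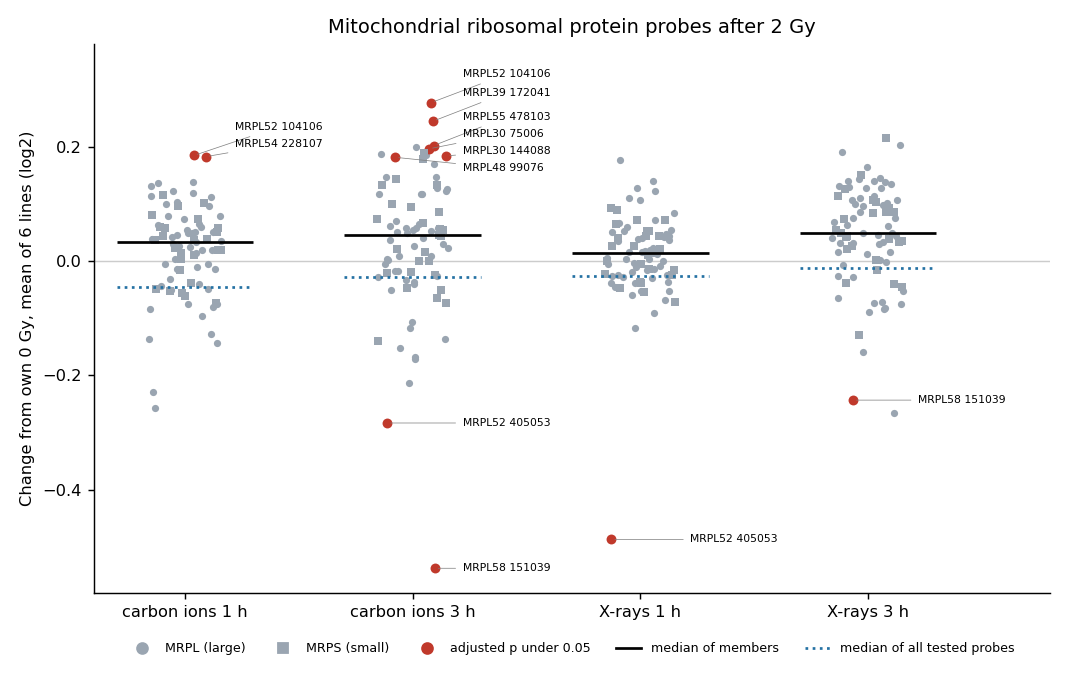
Change from the line's own 0 Gy cells, mean of 6 lines (vertical axis, log2), of the 81 member probes in each comparison; circles are MRPL and squares MRPS probes, red points passed adjusted p under 0.05, the black line is the members' median and the dotted line that of all tested probes. Most members lie within 0.2 of no change, and MRPL52 appears on both sides at carbon ions 3 h.

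The median change of the members was 0.03 and 0.05 at 1 h and 3 h after carbon ions, against -0.05 and -0.03 for all tested probes. After X-rays it was 0.01 and 0.05, against -0.03 and -0.01. The members' median lay above that of all probes in 6, 6, 6 and 5 of 6 lines, in that order, the exception being HMV-I at 3 h after X-rays. Another scaling changed the size and not the side: with values as deposited the members' medians were 0.13 and 0.14 after carbon ions and 0.06 and 0.08 after X-rays, against 0.01, -0.03, 0.004 and -0.02 for all probes. The calls did depend on it, since median centring gave 6 higher and 1 lower at 1 h after carbon ions and 14 and 2 at 3 h, and values as deposited 25 and 0, and 22 and 2. Of all probes, 2.4% and 11.2% were higher and lower at 1 h and 3.78% and 10.9% at 3 h with median centring. As deposited these shares were 7.61% and 6.97%, and 6.01% and 10.1%. Of the 84 member probes, 71 lay in the top 25% by level of all probes with at most 10% missing values. Members and all tested probes are thus unlike in level, and probes matched in level were not compared.

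MRPL39, a large-subunit protein related to a tRNA synthetase, rose at 3 h after carbon ions. Its changes were 0.29 in 92-1, 0.09 in C32TG, 0.37 in Colo679, 0.21 in HMV-I, 0.27 in HMV-II and 0.23 in MeWo, all above 0. The mean was 0.24 ± 0.09 (SD, n = 6 lines, adjusted p = 0.0103), and it passed under all 14 alternatives. MRPL55, found only in mitochondria, rose by 0.20 ± 0.09 (adjusted p = 0.0243), both probes of MRPL30 by 0.20 ± 0.07 and 0.18 ± 0.11 (0.0257 and 0.039) and MRPL48 by 0.18 ± 0.12 (0.0486), each in all 6 lines. Each of these 4 calls was lost under some alternatives. MRPL55 lost its call in 6 of 14 alternatives, without 92-1, HMV-I, HMV-II, MeWo, replicate 1 or replicate 2. MRPL30 probe 75006 lost it in 6 of 12, under median centring and without 92-1, Colo679, HMV-I, HMV-II or replicate 1. MRPL30 probe 144088 lost it in 10 of 14, without any 1 of the lines or replicates and without the level filter. MRPL48 lost it in 8 of 14, without the level filter and without 92-1, Colo679, HMV-I, HMV-II, MeWo, replicate 1 or replicate 3.

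At 1 h after carbon ions MRPL54, another protein found only in mitochondria, rose. Its changes were 0.22 in 92-1, 0.19 in C32TG, 0.16 in Colo679, 0.23 in HMV-I, 0.24 in HMV-II and 0.07 in MeWo (mean 0.18 ± 0.07, SD, n = 6 lines, adjusted p = 0.0112). All 6 lines were above 0, and the call was lost without replicate 2 (adjusted p = 0.0814). MRPL43 had a mean of -0.14 ± 0.07, with no line above 0, and did not pass (adjusted p = 0.055). At 1 h after X-rays MRPL54 had 0.12 ± 0.09 and did not pass (0.186), and at 3 h MRPS17 had 0.22 ± 0.16 and did not pass (0.057).

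MRPL52 gave opposite results at its 2 probes. At probe 104106, the brighter one, the changes at 3 h after carbon ions were 0.30 in 92-1, 0.15 in C32TG, 0.61 in Colo679, 0.20 in HMV-I, 0.13 in HMV-II and 0.26 in MeWo. That was a rise in 6 of 6 lines (mean 0.28 ± 0.18, SD, adjusted p = 0.021). Colo679 was high: its arrays went from 2.50, 2.99 and 3.09 to 3.47, 3.75 and 3.21. At 1 h the mean was 0.18 ± 0.08 (adjusted p = 0.0177) after carbon ions and 0.18 ± 0.09 after X-rays, where it did not pass (0.078). The 3 h call was lost without 92-1 (adjusted p = 0.073), and the 1 h call without Colo679, HMV-II, replicate 1 or replicate 2.

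At probe 405053, whose mean log2 level of 0.51 was near the filter, the same cells gave a fall. At 1 h after X-rays its changes were -0.75 in 92-1, -0.67 in C32TG, -0.54 in Colo679, -0.28 in HMV-I, -0.41 in HMV-II and -0.27 in MeWo (mean -0.49 ± 0.20, SD, adjusted p = 0.00854), and it passed under all 14 alternatives. In 92-1 the arrays went from 1.37, 1.60 and 1.55 to 0.74, 0.85 and 0.68, with no overlap. At 3 h after carbon ions it fell in 6 of 6 lines (mean -0.28 ± 0.12, adjusted p = 0.0141; not called without 92-1 or replicate 1). At 3 h after X-rays the mean was -0.27 ± 0.22 (0.0633), and at 1 h after carbon ions -0.26 ± 0.36 (0.131) with HMV-II at 0.47 and the other lines between -0.52 and -0.27; neither passed. Over the 12 unirradiated means the probes correlated at 0.47, a description over sets that share lines.

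**Figure D5:**
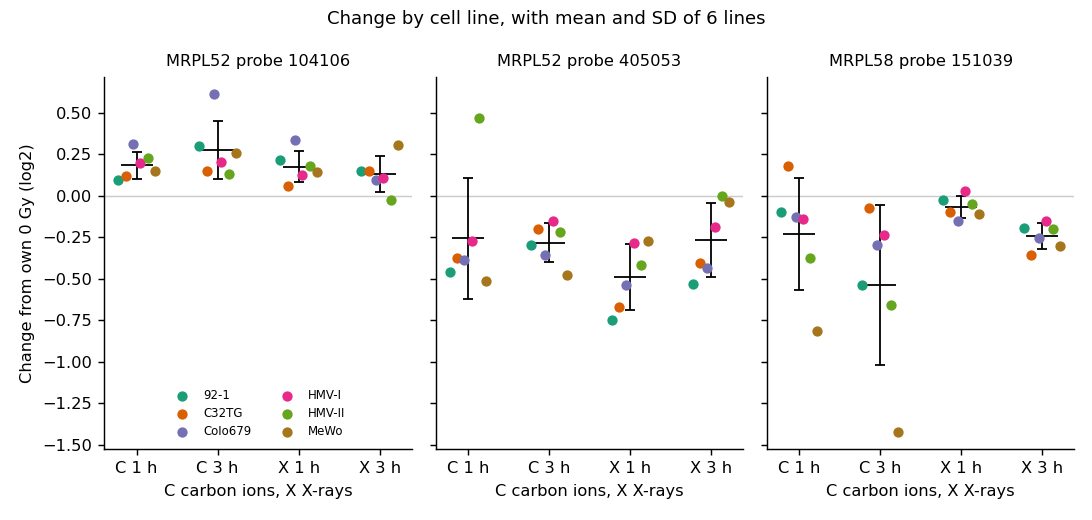
Change from own 0 Gy (vertical axis, log2) by line (colours) for both MRPL52 probes and MRPL58 at 1 h and 3 h after carbon ions (C) and X-rays (X); black marks are the mean and SD of 6 lines. Probe 104106 lies above 0 and probe 405053 below it in nearly all lines, and MRPL58 reaches -1.42 in MeWo at 3 h after carbon ions.

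MRPL58 fell at 3 h after both beams. After carbon ions its changes were -0.54 in 92-1, -0.07 in C32TG, -0.29 in Colo679, -0.24 in HMV-I, -0.66 in HMV-II and -1.42 in MeWo (mean -0.54 ± 0.48, SD, n = 6 lines, adjusted p = 0.0265). MeWo was the lowest of the lines, and without it the mean was -0.36 and still passed; without 92-1, HMV-II or replicate 3 the call was lost. After X-rays the changes were closer together, at -0.19, -0.36, -0.26, -0.15, -0.20 and -0.30 in the same order (mean -0.24 ± 0.08, adjusted p = 0.0175), and the call was lost without 92-1, C32TG, MeWo or replicate 1. The means at 1 h were -0.23 ± 0.34 after carbon ions and -0.07 ± 0.07 after X-rays, and neither passed (0.135 and 0.480).

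The members looked at whatever their values did not pass in any of the 4 comparisons. MRPL12 had means of -0.005, 0.010, 0.014 and 0.017 at 1 h and 3 h after carbon ions and 1 h and 3 h after X-rays. In the same order MRPL15 had 0.019, -0.033, -0.005 and -0.007. MRPS18A had 0.04, 0.07, 0.01 and 0.09, MRPS18B -0.04, 0.001, 0.03 and 0.08, and MRPS18C -0.05, -0.07, -0.02 and 0.03. MRPS30 had -0.06, 0.0003, 0.05 and 0.05.

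Within MeWo, MRPL58, MRPL20 and MRPL19 were lower at 3 h after carbon ions than at 0Gy by more than any other member. They are also the probes farthest below the X-ray set at 0Gy, and both values use the same carbon-ion 0Gy arrays. MRPL58 read 2.38, 2.15 and 1.83 at 0Gy, 1.70, 1.06 and 1.15 at 1 h, and 0.95, 0.56 and 0.57 at 3 h. MRPL20 read 4.75, 4.56 and 4.56, then 4.36, 4.22 and 3.88, then 4.05, 3.63 and 3.75. The 3 h changes were -1.42 ± 0.15 for MRPL58, -0.82 ± 0.10 for MRPL20 and -0.80 ± 0.11 for MRPL19 probe 394014 (SE, adjusted p = 8.77e-07, 7.49e-06 and 1.36e-05). In the MeWo X-ray cultures the 3 h changes of the same probes were -0.30 ± 0.15, -0.09 ± 0.10 and -0.12 ± 0.11, and none passed. In all, 5 of 80 members were higher and 11 lower at 3 h after carbon ions in MeWo (4.11% and 15.4% of all probes). The F test over both beams and times called 16 (22.1% of all), but 3 without replicate 2 and 5 without replicate 3. With a replicate left out, the share of all probes is not given here.

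In Colo679, members rose more often than they fell at 3 h after carbon ions. There 23 of 78 members were higher and 1 lower (13.5% and 5.28% of all tested probes), with a median of 0.11 against 0.05 for all. The members' median was 0.08 at 1 h after carbon ions, and -0.008 and 0.02 at 1 h and 3 h after X-rays. Between the 0Gy sets of Colo679 the members' median difference was -0.13, against -0.04 for all. That difference and the changes after carbon ions use the same carbon-ion 0Gy arrays. Of 26 small-subunit members 10 were higher, among them MRPS22 by 0.41 ± 0.07, MRPS9 by 0.38 ± 0.09 and MRPS35 by 0.38 ± 0.07 (SE). The F test over both beams and times called 20 members (21.5% of all), but 0 without replicate 2 and 8 without replicate 3. In the other lines it called 8 of 77 in 92-1 (16.3% of all), 8 of 75 in C32TG (20.5%), 14 of 80 in HMV-I (25%) and 4 of 77 in HMV-II (12.6%). Without replicate 1, 2 or 3 in turn it called 2, 1 and 5 in 92-1, 3, 3 and 9 in C32TG, 1, 0 and 3 in HMV-I, and 1, 1 and 3 in HMV-II. For every count with a replicate left out, the share of all probes is not given here. Such moves are not read as particular to the members.

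The change differed between lines for 26 of 75 members at 3 h after carbon ions and 15 at 3 h after X-rays, by an F test on arrays that called 25.6% and 17.1% of all probes. At 1 h it called 2 members after each beam, against 4.04% and 4.26% of all.

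The direct comparison of the beams called no member at either time, and 0% of all probes (limma, 0 also in the fit on all arrays). At an unadjusted p under 0.05 there was 1 member at 1 h and 1 at 3 h. The shares of all probes at that limit are not given here. At 1 h MRPL28 probe 24068 had a carbon-ion minus X-ray change of 0.19 (95% interval 0.002 to 0.38, adjusted p = 0.74). Its other probe, 179030, had 0.04 (-0.13 to 0.22, adjusted p = 0.95). MRPS11 probe 36081 had 0.13 (adjusted p = 0.75). At 3 h the difference was -0.17 for MRPL42, -0.14 (-0.26 to -0.02) for MRPS28, below 0 in 6 of 6 lines, and -0.29 (-0.62 to 0.03) for MRPL58, all with an adjusted p of 1. For MRPL52 it was 0.15 (-0.03 to 0.32) at probe 104106 and -0.02 (-0.23 to 0.20) at probe 405053.

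Other genes of mitochondrial translation moved little after irradiation as well. MTG2, a GTPase of large-subunit assembly, rose by 0.34 and PARS2, the mitochondrial prolyl-tRNA synthetase, by 0.32 at 3 h after carbon ions, and both also rose at 3 h after X-rays, by 0.27 and 0.29. At 3 h after carbon ions 2 of 21 assembly factors were higher and 1 lower, 2 of 15 synthetases were higher and 0 lower, and 0 of 10 translation factors, 0 of 8 mitochondrial transcription factors and 0 of 8 regulators of biogenesis passed. At 1 h TACO1, a translational activator, rose by 0.14. Of 54 cytosolic ribosomal proteins 0 were higher and 3 lower at 3 h after carbon ions, with a median of -0.02. In the same comparison 15 of 23 genes of G2 phase and mitosis were lower and 0 higher, with a median of -0.36, beside the members' 0.05; whether it bears on the members was not tested.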

How the data were processed

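RNA of melanoma cells, isolated by ISOGEN and RNeasy, was biotin-labelled and hybridised, per the labels' protocols. The values are spot intensities on a linear scale that the authors deposited, already scaled per array; how they were scaled is not given in the sources used here. Here, log2 of the deposited intensity was quantile-normalized over 54359 probes. Probes with at most 10% missing values, a value in every group and a mean log2 above 0.0675 were kept, 26717 in all. Symbols came from the platform annotation, which gives 23472 probes 1 symbol, 905 several and the rest none here; MRPL41 and MRPS6 are not analysed here.

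Tests used limma 3.58.1 in R 4.3.3, two-sided, with a variance trend on mean log2 level and Benjamini-Hochberg adjustment over all kept probes at 0.05. Across lines, each of 6 lines gave 1 value. Baseline used the 12 means of 3 unirradiated arrays, with line and set. Within a line, 18 arrays in 6 groups were fitted, without probes missing a value there. Intervals are 95%. Replicate arrays of a group were not identical in any pair.

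On simulated data of 26717 probes, 100 were changed by 0.3 and 100 by 1. The test across lines recovered 44% and 99% of them, as set for carbon ions at 3 h. The baseline test of MeWo against other lines recovered 0% and 53%, and the test of MeWo sets 10% and 96%. In the data far more probes were called, with 42.1% higher and 27.7% lower in the MeWo sets. The adjustment depends on that share, so these recoveries do not give the power of the tests on the data. Named members followed a written rule: members called with the same sign in all lines or, under 3 calls, the 3 smallest p; for baseline the 10 widest ranges and 3 per line and direction; for sets up to 5 per direction; MRPL12, MRPL15, MRPS18A, MRPS18B, MRPS18C and MRPS30 always; and probes of 1 gene that disagree in sign. Members, lists and rules were chosen with earlier results of these data known; the F test between lines, the promoter search and the limit of 1 were added during the analysis. Figures used matplotlib 3.10.9. Alternatives were another scaling, no level filter, each replicate or line left out, and fits on arrays with and without the replicate number.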

Additional observations from a re-analysis of the deposited data

Results flagged for a closer look

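Of 29 sets of 6 line values, 4 had 1 line far from the others by Dixon's criterion, which chance alone meets in about 1 in 20. That rate holds for sets not picked by their values. Some of these were, such as MRPS16 for its range over lines, so 4 of 29 is not compared with it. The members' median difference between unirradiated sets was 0.226 in MeWo and between -0.12 and 0.004 in the other lines. MRPL52 probe 104106 changed by 0.615 in Colo679 at 3 h after carbon ions and by 0.13 to 0.30 elsewhere. MRPL55 changed by 0.0395 in C32TG in the same comparison and by 0.19 to 0.27 elsewhere. The unirradiated level of MRPS16 was 4.007 in C32TG and 5.33 to 5.94 elsewhere.

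By F tests on arrays, the set difference varied between lines for 70 members, the change after carbon ions for 2 at 1 h and 26 at 3 h, and the change after X-rays for 2 at 1 h and 15 at 3 h.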

How the results depend on the processing

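Medians and counts are set against the values in the report, and the cause of each change was not tested unless the setting itself removes samples or probes. With median centring, 7, 16 and 2 members passed after carbon ions at 1 h and 3 h and X-rays at 3 h, the members' medians after carbon ions were 0.085 and 0.127, the Colo679 sets had 24 calls and irradiation in HMV-I 22. With values as deposited, 25, 24 and 3 passed, the medians were 0.130 and 0.138 after carbon ions and 0.062 at 1 h after X-rays, the sets had 24 calls in 92-1 and 3 in HMV-II, and irradiation had 18 in 92-1, 13 in C32TG, 13 in Colo679 and 2 in HMV-II. Without the level filter, 2 members passed at 1 h and 2 at 3 h after X-rays, and irradiation in 92-1 had 5 calls. At 3 h after X-rays 1.32% of all probes were higher and 5.11% lower with median centring, and 1.77% and 5.98% as deposited. For the irradiation counts and without the level filter the shares are not given here.

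Leaving out 1 replicate or line in turn, the calls ranged from 1 to 4 at 1 h after carbon ions, 1 to 9 at 3 h, 0 to 3 at 3 h after X-rays, 17 to 32 for baseline C32TG and 8 to 21 for baseline Colo679. Within lines, without each replicate in turn, the sets gave 1 to 8 calls in 92-1, 0 to 8 in Colo679 and 3 to 8 in HMV-II. Irradiation gave 1 to 5 in 92-1, 3 to 9 in C32TG, 0 to 15 in Colo679, 0 to 3 in HMV-I, 1 to 3 in HMV-II and 3 to 15 in MeWo. For all these ranges the shares of all probes are not given here, and they are not read as particular to the members.

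Same-numbered replicates correlated between -0.42 and 0.45 in their deviations from group means. The same-number median was 0.10 in HMV-II, 0.06 in Colo679, 0.05 in MeWo, 0.02 in C32TG, 0.008 in HMV-I and -0.01 in 92-1. For other numbers it was -0.04, -0.03, -0.02, -0.005, 0.01 and 0.008 in the same order. These values do not settle whether the numbers pair samples. In fits on all arrays without a replicate block, 15, 28, 8, 26 and 31 members passed (carbon ions at 1 h and 3 h, X-rays at 1 h and 3 h, sets), and 16, 29, 7, 25 and 31 with the replicate block. On the 36 unirradiated arrays, baseline calls were 41 in MeWo, 58 in HMV-I, 46 in HMV-II, 45 in 92-1, 48 in C32TG and 41 in Colo679 without a replicate block, and 42, 56, 44, 45, 47 and 41 with it. Within lines the replicate block gave irradiation 5 calls in 92-1 and 7 in HMV-II. The shares of all probes in these fits on arrays are not given here. Of the other alternative values for the comparisons, 295 kept their side of the threshold or stayed within the spread, and 0 named members reversed. Group medians did change sign with median centring and as deposited: baseline HMV-I went from 0.16 to -0.07 and -0.22, the HMV-I sets from -0.001 to 0.14 and 0.16, the C32TG sets from 0.004 to -0.04 and -0.09, and the beam difference at 3 h from -0.01 to 0.04 and 0.04. As deposited, baseline C32TG went from -0.11 to 0.06 and the MeWo sets from 0.23 to -0.009.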
